A study of Mus musculus with 12 samples.

Results

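Alveolar type 1 cells are the broad, thin epithelial cells that cover most of the gas-exchange surface of the lung, and 10 genes that mark them were followed here in whole mouse lung. The genes were taken by symbol as a marker list rather than by a rule on measured values, although earlier results of these data were known when the list was made: the receptor Ager, the surface glycoprotein Pdpn, the transcription cofactor Hopx, the water channel Aqp5, the caveolins Cav1 and Cav2, and Clic5, Rtkn2, Akap5 and Gprc5a. All 10 were found among the 49585 genes of the table, each on 1 identifier, and all 10 passed the filter on low values.

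The libraries hold poly-A RNA of lungs from mice without Rgs4 (KO) and from wild-type mice (WT), given the mould Aspergillus fumigatus (Af) or phosphate-buffered saline (PBS), in a study of airway hyperresponsiveness. Rgs4 is a regulator of G protein signalling. There were 4 groups of 3 libraries, named by group and library number: KO_Af 12 to 14 from Rgs4 KO mice given Af, WT_Af 18 to 20 from wild-type mice given Af, KO_PBS 9 to 11 from Rgs4 KO mice given PBS, and WT_PBS 15 to 17 from wild-type mice given PBS. The strain label of all 12 libraries is Balb/cJ. Not given in the sources used here are how the Rgs4 allele was made, the age and sex of the mice, and how much Af was given, in what form and by which route. Nothing in the labels says whether the libraries of a group came from separate animals, so the p-values measure only the spread between these libraries, which may be technical.

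Type 1 cells lie against the capillary endothelium and share a basement membrane with it, and both layers together form the air-blood barrier. They are renewed from alveolar type 2 cells, the surfactant-making cells of the same epithelium, through a transitional state rich in keratin 8 that is known from injured mouse lung. Type 1 cells are rich in caveolae, small pits of the plasma membrane, and in the receptor for advanced glycation end products (RAGE), the product of Ager. Not every one of the 10 genes is restricted to them: caveolins are also abundant in endothelium, Pdpn is made by lymphatic endothelium and mesothelium, and Gprc5a is found in airway epithelium. RNA of a whole lung pools these sources. In such samples fewer cells of a type, less RNA per cell and more RNA from other cells cannot be told apart.

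Total counts ran from 20708884 to 30229446 reads per library, and each of the 10 genes drew between 611 and 59233 reads in a library. Rgs4 checked the labels of genotype and not those of exposure. Its mean was 1.15 ± 0.311 CPM in KO_Af, against 45.1 ± 3.27 CPM in WT_Af (SD, n = 3 each, limma adjusted p = 1.27e-07). Under PBS it was 0.892 ± 0.282 CPM in KO_PBS, against 22.9 ± 2.63 CPM in WT_PBS (SD, n = 3 each, limma adjusted p = 7.97e-07). CPM are read counts relative to library size, adjusted between libraries by the authors. Changes are differences of log2(CPM + 0.5), given with their standard error, and a gene was called changed at an adjusted p under 0.05 in a limma fit over all 12 libraries and 16126 genes. Library values are listed in the order of the library numbers.

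A pair of KO libraries stood apart for the type 1 genes. KO_PBS 11 was the lowest library of its group for 10 of 10 of them, at 46.4% (Akap5) to 92.3% (Cav2) of the mean of KO_PBS 9 and 10, with a median of 63.0%. It was also the lowest of its group for 20 of 20 other genes of type 1 cells on a separate list, at a median of 61.6%, whereas 37.7% of all tested genes were below both other libraries there. Marker genes of several other cells were near 100%: the same median was 101% for alveolar type 2 cells, 104% for endothelium, 106% for club cells (the secretory cells of the small airways) and 99.1% for leukocytes. Ciliated cell markers were at 86.7% and markers of cardiac muscle, which lines the pulmonary veins of mice, were at 139%. Regulators linked to type 1 identity were at 88.2%, with 9 of 12 below both other libraries. Markers of the transitional alveolar epithelium were at 90.0%, with 9 of 10 below both.

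KO_Af 12 was the highest library of its group for 10 of 10 type 1 genes, at 119.9% (Gprc5a) to 274% (Rtkn2) of the mean of KO_Af 13 and 14, with a median of 169.5%, whereas 40.3% of all tested genes were above both others there. The 20 other type 1 genes were less uniform in this library, with a median of 118%. The same median was 110.5% for alveolar type 2 cells, 92.8% for endothelium, 156% for club cells, 107% for ciliated cells, 106% for leukocytes and 177% for cardiac muscle. Over all tested genes the log2 levels of KO_Af 12 correlated with KO_Af 13 and 14 at 0.970 and 0.975 (Pearson), against 0.989 between those 2. Markers of squamous and basal epithelium summed to 302 CPM in KO_Af 12, against 13.1 and 19.0 CPM in KO_Af 13 and 14, and club cell markers to 15067 CPM, against 7871 and 11820 CPM. Values without KO_PBS 11 and KO_Af 12 are given beside the KO results on the type 1 genes, a setting chosen after the data were seen. Its direction was fixed in advance, because the lowest PBS and the highest Af library of all 10 genes are left out. Every KO change under Af, every interaction estimate and every KO minus WT difference under Af must then be lower. Each KO minus WT difference under PBS must be higher. Leaving the 2 libraries out also takes spread out of the KO groups for these genes. Calls and adjusted p-values of this setting are therefore no separate support for a change. Squamous and basal markers were also high in WT_PBS 17, at 505 CPM, against 3.93 and 7.90 CPM in WT_PBS 15 and 16. In WT, WT_Af 18 was the highest of its group for 9 of the 10 genes and WT_PBS 16 for 9.

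**Figure D1:**
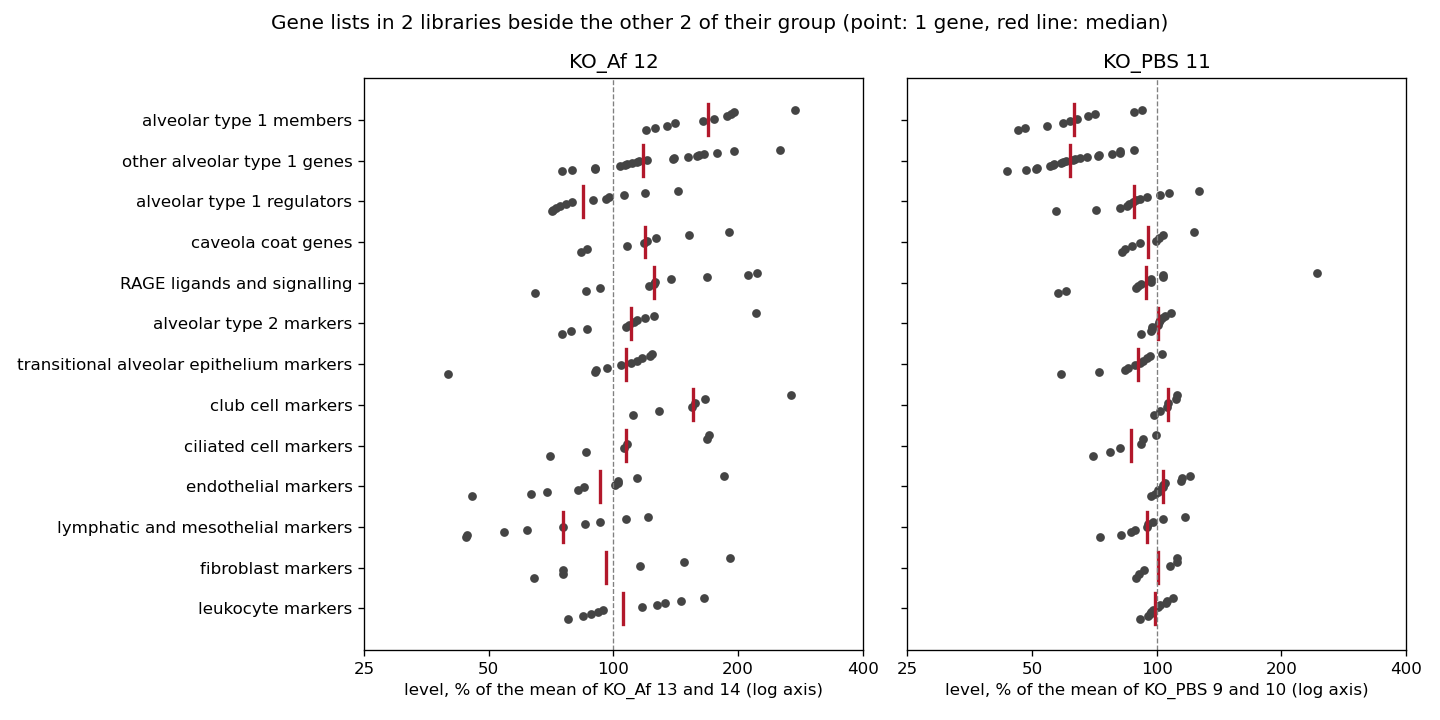
Level in KO_Af 12 as a percentage of the mean of KO_Af 13 and 14 (left) and in KO_PBS 11 as a percentage of the mean of KO_PBS 9 and 10 (right), on a log axis, with 1 point a gene, the gene lists in rows and the list median as a red line. The 10 type 1 genes (top row) lie between 119.9% and 274% in KO_Af 12 and between 46.4% and 92.3% in KO_PBS 11.

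The levels of the 10 genes were compared with each other per kilobase of exon, since a longer transcript gives more reads. In WT_PBS lungs Ager led with 906 ± 64.2 CPM per kilobase, followed by Cav1 with 357 ± 42.6, Hopx with 213 ± 25.9 and Gprc5a with 207 ± 9.74 (SD, n = 3). Clic5 followed with 128 ± 14.0 and Cav2 with 80.0 ± 8.49 CPM per kilobase. Hopx and Gprc5a did not differ beyond their spread. Aqp5 with 69.8 ± 7.40, Pdpn with 68.9 ± 1.70, Akap5 with 58.5 ± 5.25 and Rtkn2 with 43.5 ± 3.63 CPM per kilobase closed the order. Aqp5 and Pdpn lay within their spread of each other, and Cav2 and Aqp5 lay within the sum of their SDs. Ager stayed first, Cav1 second and Rtkn2 last in all 4 groups, while Pdpn was the fifth in KO_Af and WT_Af, against the ninth in KO_PBS and the eighth in WT_PBS.

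Under Af most of the type 1 genes were lower than under PBS in both genotypes. In KO lungs 8 of the 10 fell and 1, Pdpn, rose, where 29.2% of all tested genes were called lower and 28.7% higher. In WT lungs 9 of the 10 fell and none rose, where 25.6% of all tested genes were called lower and 26.2% higher. Without KO_PBS 11 and KO_Af 12, which could only lower the KO changes of these genes, 9 fell and 0 rose in KO, with Gprc5a added to the decreases. The median log2 change over the 10 genes was -0.96 in KO and -1.16 in WT, while the median over all tested genes was -0.016 in each. In WT every Af library was below every PBS library for 9 genes, all but Pdpn, and 32.7% of all tested genes were separated in that direction. In KO this held for 5 genes, Cav1, Cav2, Clic5, Rtkn2 and Akap5, against 31.7% of all tested genes, and for the other 5 the KO_Af and KO_PBS libraries overlapped.

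**Figure D2:**
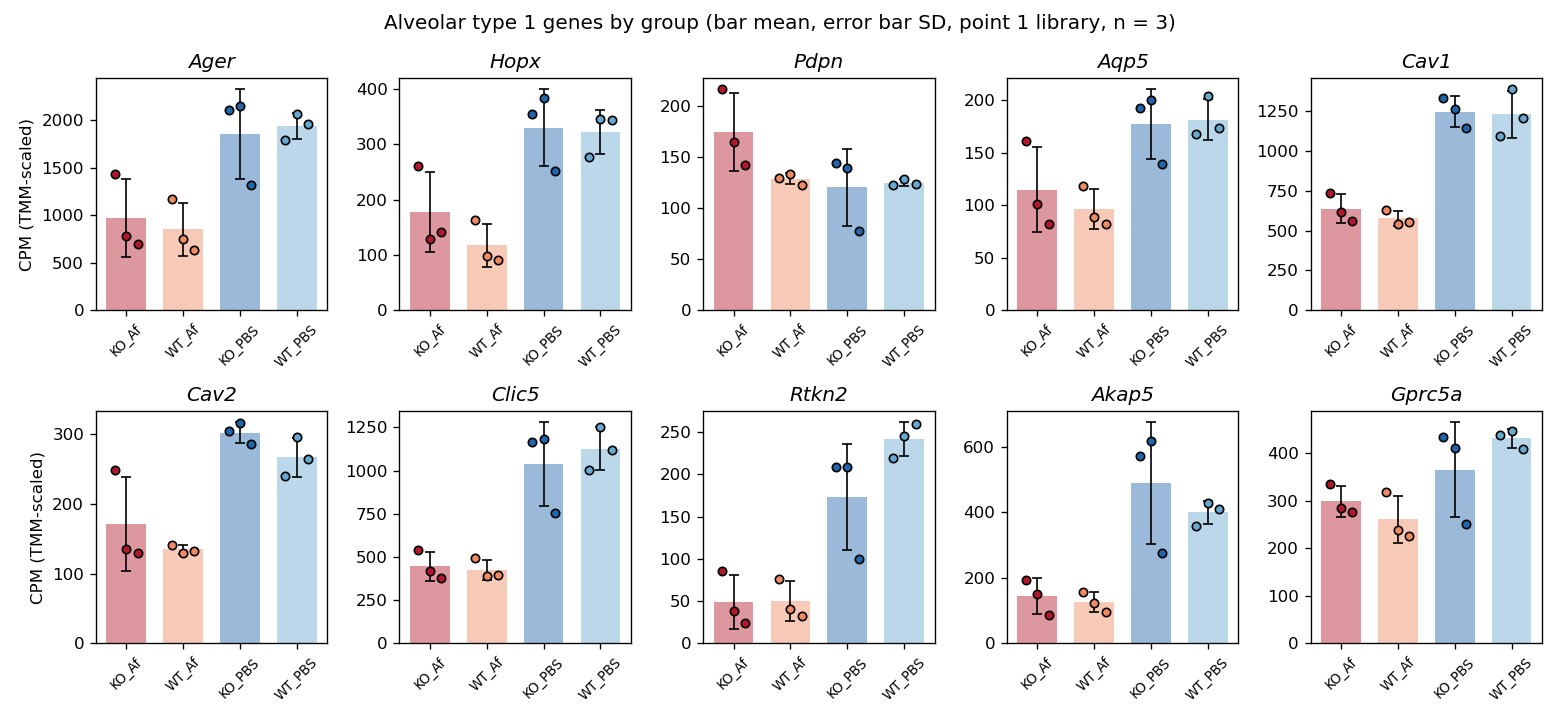
CPM (linear axis, from 0) of each of the 10 genes in the groups KO_Af, WT_Af, KO_PBS and WT_PBS, with 1 point a library and the mean ± SD as bar and error. For 9 genes the Af means lie below the PBS means in both genotypes, and Pdpn is the exception.

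Ager encodes RAGE, a receptor of the immunoglobulin superfamily that binds HMGB1 and S100 proteins. It lies on chromosome 17, from 34597862 to 34600936 on the plus strand of GRCm38. Its level was 1440.2, 779.7 and 698 CPM in KO_Af, against 2105, 2149 and 1315 CPM in KO_PBS. In WT_Af it was 1170.2, 749 and 635 CPM, against 1795, 2069 and 1957 CPM in WT_PBS. All 3 WT_Af libraries were below all WT_PBS libraries, whereas KO_Af 12 was above KO_PBS 11. The mean under Af was 52.4% of that under PBS in KO and 43.9% in WT, a log2 change of -0.97 ± 0.30 in KO (limma adjusted p = 0.0146) and of -1.24 ± 0.30 in WT (limma adjusted p = 0.00471). Without KO_Af 12 and KO_PBS 11 the KO change was -1.53, and the KO call was lost on leaving out KO_Af 14 (limma adjusted p = 0.0614), KO_PBS 9 (0.0555) or KO_PBS 10 (0.0572).

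Pdpn encodes podoplanin, a mucin-type glycoprotein of the type 1 cell surface, also called T1-alpha, that mice need to form normal alveoli. It lies on chromosome 4, from 143267431 to 143299564 on the minus strand. Its level was 217, 165 and 143 CPM in KO_Af, against 145, 139.8 and 77.4 CPM in KO_PBS. The WT_Af libraries had 130.2, 134 and 123 CPM, against 123, 129 and 124 CPM in WT_PBS. The 6 WT libraries thus lay between 123 and 134 CPM whatever the exposure, while the KO libraries spread from 77.4 to 217 CPM. The log2 change was 0.57 ± 0.21 in KO (limma adjusted p = 0.0355) and 0.04 ± 0.21 in WT (limma adjusted p = 0.873, 95% interval -0.41 to 0.50). The KO rise was not called without KO_Af 12 (0.40, limma adjusted p = 0.128), without KO_Af 13 (0.60, 0.0562), without KO_PBS 11 (0.27, 0.125) or without both KO_PBS 11 and KO_Af 12 (0.11, 0.258). Markers of lymphatic endothelium and mesothelium, which also make Pdpn, summed to 385 to 795 CPM in KO_Af, 455 to 727 CPM in WT_Af, 591 to 671 CPM in KO_PBS and 824 to 861 CPM in WT_PBS. The largest part of these sums was 1 gene, Lyve1, with means of 358, 354, 248 and 452 CPM in the same order. The part of these cells in the Pdpn level was not tested.

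The ratio of Pdpn to Ager, each per kilobase, put this contrast on 1 scale. It was 0.177 to 0.249 in KO_Af and 0.131 to 0.229 in WT_Af, against 0.0694 to 0.0810 in KO_PBS and 0.0733 to 0.0808 in WT_PBS. Every Af library was above every PBS library, KO_Af 12 and KO_PBS 11 included. In WT this restates the Ager decrease, since Pdpn stayed between 123 and 134 CPM there. The share of all gene pairs separated in this way was not computed. The stretches from 250 bases before to 50 bases after the RefSeq start (GRCm38.p6) are shown for both genes because their RNA levels parted under Af. Capitals mark GC boxes, CCGCCC on either strand.
Ager promoter, chr17:34597600-34597899, plus strand: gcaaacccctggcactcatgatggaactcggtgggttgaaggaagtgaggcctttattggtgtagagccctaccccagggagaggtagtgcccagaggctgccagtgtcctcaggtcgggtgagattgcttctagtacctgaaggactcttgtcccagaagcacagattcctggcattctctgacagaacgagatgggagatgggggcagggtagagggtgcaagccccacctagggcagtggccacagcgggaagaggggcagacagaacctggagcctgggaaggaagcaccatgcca
Pdpn promoter, chr4:143299515-143299814, minus strand: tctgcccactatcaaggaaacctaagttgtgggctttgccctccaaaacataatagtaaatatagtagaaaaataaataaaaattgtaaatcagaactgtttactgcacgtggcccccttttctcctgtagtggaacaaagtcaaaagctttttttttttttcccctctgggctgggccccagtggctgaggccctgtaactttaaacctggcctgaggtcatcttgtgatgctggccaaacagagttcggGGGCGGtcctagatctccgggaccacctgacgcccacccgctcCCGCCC
No GC box was found in the Ager stretch, and 2 were found in that of Pdpn, both at or after the start.

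Hopx encodes a small homeodomain protein that does not bind DNA itself and works through other transcription factors, and it marks type 1 cells from their formation on in mice. It lies on chromosome 5, from 77086988 to 77115121 on the minus strand, and an antisense gene, Hopxos, overlaps its exons at no more than 2.27 CPM. Its level was 261, 129 and 142 CPM in KO_Af, against 355, 384 and 252 CPM in KO_PBS. The WT_Af values were 163, 97.8 and 91.8 CPM, against 277, 345 and 345 CPM in WT_PBS. The WT groups were far apart, and in KO only KO_Af 12 and KO_PBS 11 crossed. Hopx fell to 53.8% of the PBS mean in KO (log2 -0.94 ± 0.28, limma adjusted p = 0.0123) and to 36.4% in WT (log2 -1.50 ± 0.28, limma adjusted p = 9.58e-04). Without KO_Af 12 and KO_PBS 11 the KO change was -1.44, and leaving out KO_Af 13 alone put it at the threshold (-0.75, limma adjusted p = 0.05005).

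Aqp5 encodes the water channel of the apical membrane of type 1 cells, found in airway glands as well. It lies on chromosome 15, from 99590782 to 99594829 on the plus strand. Its level was 161, 101 and 82.5 CPM in KO_Af, against 193, 199.7 and 139 CPM in KO_PBS. In WT_Af it was 118, 89.1 and 82.4 CPM, against 168, 203 and 173 CPM in WT_PBS. As with Ager and Hopx, KO_Af 12 and KO_PBS 11 crossed and the WT groups did not. Aqp5 fell to 64.9% of the PBS mean in KO (log2 -0.66 ± 0.23, limma adjusted p = 0.0255) and to 53.2% in WT (log2 -0.92 ± 0.23, limma adjusted p = 0.00543). The KO call was lost without KO_Af 13 (limma adjusted p = 0.0710), KO_Af 14 (0.107), KO_PBS 9 (0.0824) or KO_PBS 10 (0.0898). Without both KO_PBS 11 and KO_Af 12 the change was -1.10.

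Cav1 and Cav2 encode the caveolins that coat caveolae, and caveolin-2 needs caveolin-1 to reach the cell surface. They are neighbours on chromosome 6, Cav2 from 17281185 to 17289115 and Cav1 from 17306335 to 17341452, both on the plus strand with 17219 bases between them. Cav1 stood at 738, 616 and 559 CPM in KO_Af, against 1335, 1262 and 1143 CPM in KO_PBS, and at 631, 544 and 554 CPM in WT_Af, against 1095, 1385 and 1204 CPM in WT_PBS. No library of either genotype crossed between the exposures. Cav1 fell to 51.2% of the PBS mean in KO (log2 -0.97 ± 0.13, limma adjusted p = 8.46e-05) and to 46.9% in WT (log2 -1.09 ± 0.13, limma adjusted p = 5.39e-05). The KO change was -1.14 without KO_PBS 11 and KO_Af 12.

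Cav2 stood at 248, 136 and 129 CPM in KO_Af, against 304, 315 and 286 CPM in KO_PBS, and at 141, 129.6 and 133 CPM in WT_Af, against 239.8, 296 and 264 CPM in WT_PBS. It too was separated by exposure in both genotypes, with KO_Af 12 close to the PBS range. Cav2 fell to 56.6% of the PBS mean in KO (log2 -0.88 ± 0.20, limma adjusted p = 0.00246) and to 50.5% in WT (log2 -0.98 ± 0.20, limma adjusted p = 0.00159). Without KO_PBS 11 and KO_Af 12 the KO change was -1.23. The Cav1 to Cav2 ratio, each in CPM per kilobase of exon, was 2.88 in KO_Af 12 and 4.20 to 4.39 in KO_Af 13 and 14. It was 4.03 to 4.32 in WT_Af, 3.87 to 4.24 in KO_PBS and 4.41 to 4.53 in WT_PBS. Of all 45 pairs among the 10 genes, Cav1 and Cav2 had the closest profiles over the 12 libraries, with a root mean square difference of 0.167 between their centred log2 levels. Pairs on different chromosomes were almost as close, Aqp5 and Cav2 at 0.175 and Ager and Hopx at 0.183.

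The stretches around the starts of both caveolin genes (RefSeq, GRCm38.p6) are shown because the genes are neighbours with similar profiles. Capitals mark GC boxes (CCGCCC on either strand) and, in Cav2, the letters CAAGTG, which NKX2-1 is known to bind in lung epithelium.
Cav1 promoter, chr6:17306085-17306384, plus strand: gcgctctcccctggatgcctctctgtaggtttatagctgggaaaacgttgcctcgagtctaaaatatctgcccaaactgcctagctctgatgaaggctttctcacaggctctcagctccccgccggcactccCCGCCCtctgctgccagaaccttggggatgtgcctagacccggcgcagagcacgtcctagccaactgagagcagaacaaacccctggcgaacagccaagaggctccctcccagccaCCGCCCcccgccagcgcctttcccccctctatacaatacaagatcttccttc
Cav2 promoter, chr6:17280935-17281234, plus strand: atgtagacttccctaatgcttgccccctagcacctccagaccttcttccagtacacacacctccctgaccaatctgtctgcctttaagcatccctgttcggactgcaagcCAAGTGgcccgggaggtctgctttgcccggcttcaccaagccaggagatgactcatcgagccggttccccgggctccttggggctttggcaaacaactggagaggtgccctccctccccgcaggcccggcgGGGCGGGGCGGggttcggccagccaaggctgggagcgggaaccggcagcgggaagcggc
CAAGTG began 140 bases before the Cav2 start. The run of capitals next to the Cav2 start holds 2 overlapping GC boxes, and the Cav1 stretch holds 2 apart from each other. Promoters of 8 of the 10 genes matched the RefSeq table by symbol, 10 stretches in all, without Rtkn2 and Gprc5a. A GC box on either strand stood in 6 of the 10 stretches, against 35.7% of all 32851 promoters of this length, and CAAGTG in 2 of 10, those of Cav2 and of an inner start of Hopx, against 13.6%. GGAATG, the core letters bound by TEAD factors, stood in 0 of 10, against 14.7%. These are matches of letters in a window and nothing more.

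Clic5 encodes a chloride intracellular channel protein that tethers the plasma membrane to actin in the inner ear of mice, and it lies on chromosome 17, from 44188584 to 44280172 on the plus strand. Its level was 539, 421 and 379 CPM in KO_Af, against 1169, 1184 and 756 CPM in KO_PBS. The WT_Af libraries had 494, 392 and 393 CPM, against 1006, 1253 and 1121 CPM in WT_PBS. Even the high KO_Af 12 stayed below the low KO_PBS 11. Clic5 fell to 43.1% of the PBS mean in KO (log2 -1.20 ± 0.19, limma adjusted p = 2.49e-04) and to 37.8% in WT (log2 -1.40 ± 0.19, limma adjusted p = 1.09e-04). The KO change was -1.56 without KO_PBS 11 and KO_Af 12.

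Rtkn2 lies on chromosome 10, from 67979570 to 68059740 on the plus strand. It had the largest decrease of the 10 genes in both genotypes. Its level was 85.3, 38.7 and 23.6 CPM in KO_Af, against 209, 209.1 and 100.4 CPM in KO_PBS. The WT_Af values were 76.4, 41.1 and 31.8 CPM, against 219.5, 245 and 259 CPM in WT_PBS. Every Af library was below every PBS library in both genotypes, and KO_Af 12 and WT_Af 18 were the highest of the Af libraries. Rtkn2 fell to 28.5% of the PBS mean in KO (log2 -1.93 ± 0.44, limma adjusted p = 0.00289) and to 20.6% in WT (log2 -2.36 ± 0.44, limma adjusted p = 9.70e-04). Without KO_PBS 11 and KO_Af 12 the KO change was -2.77.

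Akap5 encodes a scaffold that anchors protein kinase A and calcineurin at membranes, best known from neurons, and lies on chromosome 12, from 76324891 to 76334153 on the plus strand. Its level was 194, 151 and 85.1 CPM in KO_Af, against 571, 619 and 276 CPM in KO_PBS. In WT_Af it was 157, 122 and 96.2 CPM, against 359, 428 and 411 CPM in WT_PBS. The exposures were separated in both genotypes, and KO_PBS 11 lay below all WT_PBS libraries while KO_PBS 9 and 10 lay above them. Akap5 fell to 29.4% of the PBS mean in KO (log2 -1.76 ± 0.33, limma adjusted p = 8.26e-04) and to 31.3% in WT (log2 -1.70 ± 0.33, limma adjusted p = 0.00131). The KO change was -2.38 without KO_PBS 11 and KO_Af 12.

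Gprc5a encodes an orphan G protein-coupled receptor induced by retinoic acid and lies on chromosome 6, from 135065651 to 135084709 on the plus strand. Its level was 336, 284 and 276 CPM in KO_Af, against 434, 410.2 and 250.2 CPM in KO_PBS. The WT_Af libraries had 318, 239 and 225 CPM, against 438, 446 and 408 CPM in WT_PBS. The WT groups were separated, while in KO all 3 Af libraries lay above KO_PBS 11 and below KO_PBS 9 and 10. The Af mean was 81.9% of the PBS mean in KO, which was not called (log2 -0.25 ± 0.19, limma adjusted p = 0.282, 95% interval -0.67 to 0.17), and in WT Gprc5a fell to 60.5% (log2 -0.74 ± 0.19, limma adjusted p = 0.00746). The KO change was called without KO_PBS 11 (-0.50, limma adjusted p = 0.0152). It was also called without both KO_PBS 11 and KO_Af 12 (-0.59), a setting that favours calls of a decrease.

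**Figure D3:**
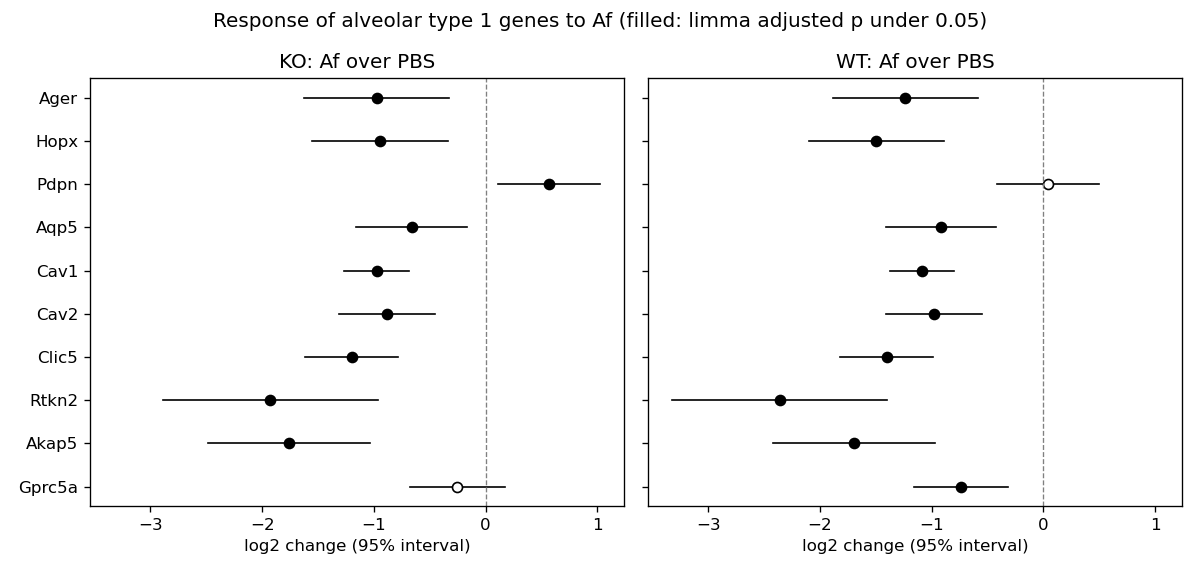
Log2 change of each of the 10 genes under Af relative to PBS in KO lungs (left) and WT lungs (right), with 95% intervals from limma, filled where the adjusted p was under 0.05. The changes run from -1.93 (Rtkn2) to 0.57 (Pdpn) in KO and from -2.36 (Rtkn2) to 0.04 (Pdpn) in WT.

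The genes also differed in how close each was to the common profile, the mean of the 10 centred log2 profiles over the 12 libraries. Ager was closest, with a root mean square distance of 0.0983, followed by Aqp5 (0.137), Clic5 (0.166) and Cav1 (0.173). Rtkn2 (0.645) and Pdpn (0.692) were farthest, the first with the deepest decrease and the second with no decrease in either genotype. Pdpn and Rtkn2 were also the most distant of the 45 pairs. Among all other genes the 5 nearest to the common profile were Nipa1, a magnesium transporter (0.103), Tspan2, a tetraspanin (0.109), Hs2st1, a heparan sulfate sulfotransferase (0.126), Dapk2, a calcium-regulated kinase (0.153), and Nt5e, the ecto-enzyme that makes adenosine (0.158). Hs2st1 is also on the separate list of 20 other type 1 genes, which was made with earlier results of these data known. Both exposures and the libraries that stood apart enter this measure.

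Between genotypes no type 1 gene was called, under Af or under PBS. Under Af 0 of 10 passed, where 0.0868% of all tested genes were called, and under PBS 0 of 10 passed, where 3.55% were called. None had an unadjusted limma p under 0.05 in either comparison, and edgeR and DESeq2 on the recovered reads also called 0 of 10 in both. The intervals leave room for differences of some size, so these results do not show equal levels.

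Over all libraries the largest differences under Af were those of Hopx and Pdpn. The Hopx mean was 178 ± 72.9 CPM in KO_Af and 117 ± 39.2 CPM in WT_Af (SD, n = 3 each), and the groups overlapped (log2 0.57 ± 0.28, limma adjusted p = 0.464). The Pdpn mean was 175 ± 37.8 CPM in KO_Af and 129 ± 5.45 CPM in WT_Af, with every KO_Af library above every WT_Af library (log2 0.41, 95% interval -0.04 to 0.87, limma adjusted p = 0.473). That separation in the same direction held for 7.66% of all tested genes. Pdpn was the only 1 of the 10 genes with it. The other 8 genes differed by -0.12 (Rtkn2, 95% interval -1.08 to 0.84) to 0.28 (Cav2, -0.15 to 0.71) on the log2 scale, KO minus WT. Without KO_PBS 11 and KO_Af 12 the 10 differences ran from -0.61 (Rtkn2, then the largest) to 0.26 (Hopx), with Pdpn at 0.25.

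Under PBS the largest difference was that of Rtkn2. Its mean was 173 ± 62.8 CPM in KO_PBS and 241 ± 20.1 CPM in WT_PBS (SD, n = 3 each), and every KO_PBS library was below every WT_PBS library (log2 -0.55, 95% interval -1.52 to 0.41, limma adjusted p = 0.579). Of all tested genes 15.7% were separated in this direction. KO_PBS 11 stood at 100.4 CPM and the other KO_PBS libraries at 209 and 209.1 CPM. The remaining 9 genes differed by -0.28 (Gprc5a, 95% interval -0.70 to 0.14) to 0.21 (Akap5, -0.51 to 0.93), and without KO_PBS 11 and KO_Af 12 the 10 differences ran from -0.20 (Rtkn2) to 0.58 (Akap5).

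**Figure D4:**
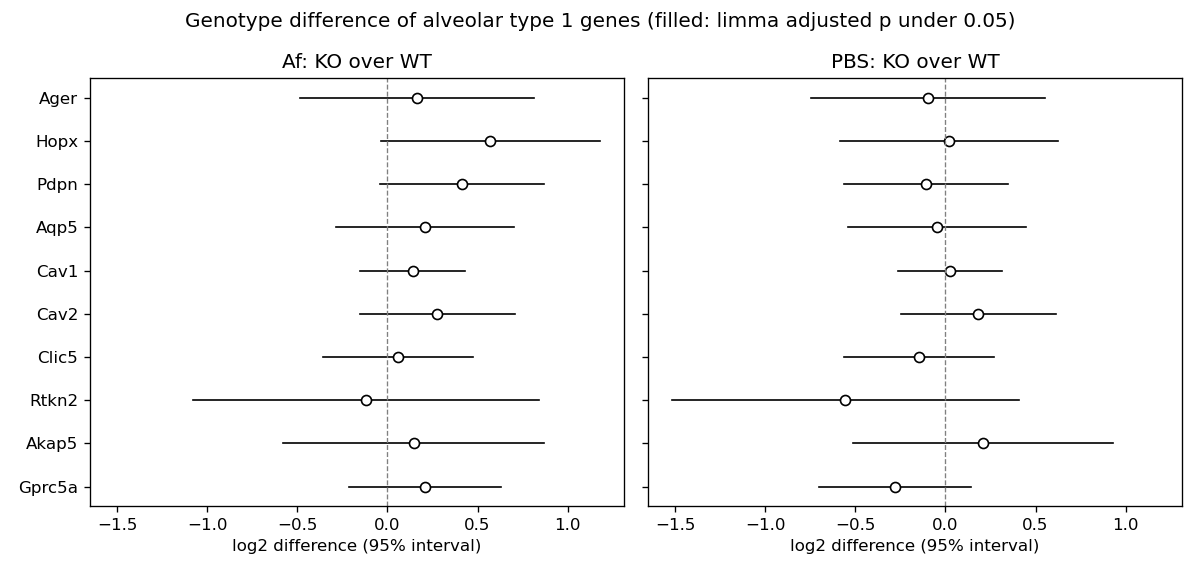
Log2 difference between KO and WT for each of the 10 genes under Af (left) and under PBS (right), with 95% intervals from limma. Every interval includes 0, and the widest are those of Rtkn2.

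Whether the response to Af itself differed between genotypes was tested as an interaction. It was called for 0 of the 10 genes, where 0.0062% of all tested genes, 1 gene, were called, and 0 of the 10 had an unadjusted limma p under 0.05, with edgeR and DESeq2 also at 0. The estimates, KO response minus WT response, ran from -0.06 (Akap5, 95% interval -1.08 to 0.96) to 0.55 (Hopx, -0.31 to 1.41) on the log2 scale. Pdpn (0.52, -0.12 to 1.17) and Gprc5a (0.49, -0.11 to 1.09) came next, both genes called in 1 genotype and not in the other, and for neither was the difference between the genotypes called. The KO and WT responses share no libraries. Leaving out KO_PBS 11 and KO_Af 12 could only lower the interaction estimates. They then ran from -0.69 (Akap5) to 0.15 (Gprc5a), with 7 of the 10 below 0 and none called. Among those below 0 were Rtkn2 (-0.41), Ager (-0.29), Cav2 (-0.25) and Aqp5 (-0.18). Hopx was then at 0.05 and Pdpn at 0.07.

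Other genes known from type 1 cells were mostly lower under Af as well. Of all tested genes 29.2% were called lower and 28.7% higher in KO, and 25.6% and 26.2% in WT. Of 20 on a separate list 16 fell and 1 rose in KO (median -1.08), and 17 fell and 1 rose in WT (median -1.34). Cyp4b1, a cytochrome P450 of lung epithelium, changed by -1.70 ± 0.18 in KO (limma adjusted p = 1.40e-05) and by -1.69 ± 0.18 in WT (2.13e-05). Timp3, an inhibitor of matrix proteases, changed by -0.68 ± 0.18 in KO and -1.57 ± 0.18 in WT, and Cyp2b10, another P450, fell to 109 ± 23.5 CPM in KO_Af and 81.3 ± 17.9 CPM in WT_Af, against 221 ± 61.5 CPM in KO_PBS and 295 ± 34.6 CPM in WT_PBS. Vegfa, the growth factor through which type 1 cells signal to capillaries, fell by 1.48 in KO and by 1.24 in WT, and the basement membrane collagen Col4a3 fell by 1.79 in KO and by 2.19 in WT. The 1 gene that rose was Icam1, an adhesion molecule for leukocytes that many cells make, by 0.67 in KO and 0.73 in WT.

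Of 12 transcription regulators and targets linked to type 1 identity, 7 fell and 2 rose in KO and 6 fell and 0 rose in WT. Over all tested genes 29.2% were called lower and 28.7% higher in KO, and 25.6% and 26.2% in WT. Yap1 and Wwtr1, the coactivators that keep type 1 identity in mice, changed by -0.48 ± 0.07 and -0.48 ± 0.09 in KO and by -0.53 ± 0.07 and -0.49 ± 0.09 in WT, all 4 called. Nkx2-1, the lung lineage factor, fell by 0.44 in KO and by 0.49 in WT. Tead4, a partner of YAP, changed by -0.73 ± 0.14 in WT (limma adjusted p = 9.90e-04) and by -0.26 ± 0.14 in KO, where it was not called (limma adjusted p = 0.123). Genes known as targets of YAP were mixed. Amotl2 fell by 0.66 in KO and was not called in WT, at -0.30, and Lats2 fell by 0.72 in KO and by 0.60 in WT. Ctgf and Ankrd1 rose by 0.43 and 0.81 in KO and were not called in WT, at -0.30 and 0.44, and Cyr61 was called in neither, at 0.18 in KO and 1.05 in WT.

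Of 8 other coat and accessory genes of caveolae 3 fell and 1 rose in KO, and 3 fell and 0 rose in WT, where 29.2% of all tested genes were called lower in KO and 25.6% in WT. Sdpr (cavin-2) changed by -1.26 ± 0.15 in KO and -1.24 ± 0.15 in WT, Ptrf (cavin-1) by -0.74 ± 0.10 and -0.66 ± 0.10, and Ehd2, an ATPase at the neck of caveolae, by -0.47 ± 0.10 and -0.61 ± 0.10, all called. Prkcdbp (cavin-3) rose by 0.52 in KO and stood at 0.13 in WT, where it was not called. Endothelium is another rich source of caveolins, and part of its markers moved too. Of 10 markers 7 were called lower in KO and 5 in WT, and none was called higher. The other 3 in KO and 5 in WT were not called, and the highest change was 0.42 in KO and 0.66 in WT. The markers summed to 3584 to 4551 CPM in KO_Af, 3797 to 4569 CPM in WT_Af, 6437 to 6700 CPM in KO_PBS and 4596 to 5729 CPM in WT_PBS. Tek changed by -1.72 ± 0.11 in KO and -1.01 ± 0.11 in WT, and Pecam1 by -0.41 in KO and -0.32 in WT. The part of endothelium in the caveolin levels was not tested.

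Of 10 genes of RAGE ligands and partners 4 rose and 1 fell in each genotype, where 28.7% of all tested genes were called higher in KO and 26.2% in WT. S100a4 rose by 1.56 ± 0.17 in KO and 1.78 ± 0.17 in WT, and Itgam, the integrin chain of myeloid cells that pairs with RAGE in leukocyte adhesion, by 1.29 ± 0.19 and 1.65 ± 0.19. App, the amyloid precursor, fell by 0.65 ± 0.10 in KO and by 0.63 ± 0.10 in WT. Hmgb1, the nuclear ligand, was called in neither, at 0.14 in KO and 0.18 in WT. Markers of leukocytes, which make S100 proteins and Itgam, rose for 6 of 10 genes in KO and 8 of 10 in WT, and summed to 1780 to 2043 CPM in KO_Af, 1666 to 2069 CPM in WT_Af, 1257 to 1334 CPM in KO_PBS and 858 to 1026 CPM in WT_PBS. Their part in these changes was not tested.

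Among the other aquaporins of the lung, Aqp1, the channel of endothelium, changed by -0.80 ± 0.10 in KO and -0.77 ± 0.10 in WT. Aqp9, a channel of leukocytes, rose by 1.72 ± 0.21 in KO and by 2.14 ± 0.21 in WT, to means of 10.4 CPM in KO_Af, against 2.78 CPM in KO_PBS, and 10.2 CPM in WT_Af, against 1.95 CPM in WT_PBS. Aqp4 fell in WT (-1.21 ± 0.21) and was not called in KO (-0.48 ± 0.21), and Aqp3, a channel of airway basal cells, rose in KO (1.47 ± 0.33) and was not called in WT (0.38 ± 0.33). Of 7 tested relatives of Clic5, Gprc5a and Rtkn2 on a list of 8, 1 rose and 3 fell in each genotype. The shares of all tested genes were 29.2% lower and 28.7% higher in KO, and 25.6% and 26.2% in WT. Clic1 rose by 1.08 ± 0.09 in KO and 0.84 ± 0.09 in WT, and Clic3, Clic6 and Gprc5c fell by 0.76, 0.63 and 0.33 in KO and by 0.91, 0.65 and 0.51 in WT. Rtkn, the closest relative of Rtkn2, was called in neither, at -0.34 in KO and -0.26 in WT.

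Genes of the neighbouring states of the alveolar epithelium were set beside those of type 1 cells. Of 10 alveolar type 2 markers 1 rose and 4 fell in each genotype, where 29.2% of all tested genes were called lower and 28.7% higher in KO, and 25.6% and 26.2% in WT. Sftpc, the most abundant, was not called. Its mean was 8660 ± 4339 CPM in KO_Af, against 10256 ± 611 CPM in KO_PBS, and 8378 ± 2301 CPM in WT_Af, against 10914 ± 3230 CPM in WT_PBS. Sftpd, a surfactant collectin of innate defence, was the 1 that rose, by 1.24 ± 0.13 in KO and 0.88 ± 0.13 in WT, while Lpcat1 and Sftpb fell by 0.86 and 0.68 in KO and by 0.78 and 0.66 in WT. Of 10 markers of the transitional state 9 rose in KO (median 1.23) and 8 in WT (median 0.75), and none fell in either.

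Among the transitional markers Lgals3 (galectin-3) rose to 639 ± 82.3 CPM in KO_Af and 586 ± 24.2 CPM in WT_Af, against 126 ± 5.51 CPM in KO_PBS and 117 ± 20.0 CPM in WT_PBS, but it is also abundant in macrophages. Krt8 rose to 254 ± 16.2 CPM in KO_Af and 241 ± 36.0 CPM in WT_Af, against 131 ± 10.0 CPM in KO_PBS and 160 ± 7.10 CPM in WT_PBS (log2 0.96 ± 0.11 in KO and 0.58 ± 0.11 in WT). Cldn4, a claudin of tight junctions, rose by 1.77 ± 0.14 in KO and 1.10 ± 0.14 in WT, and Areg, an epidermal growth factor receptor ligand that leukocytes also make, by 2.87 ± 0.20 and 1.85 ± 0.20. Keratins, Cldn4, Sfn and Areg are made in airway epithelium as well, and the cell of origin of these changes was not tested.

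**Figure D5:**
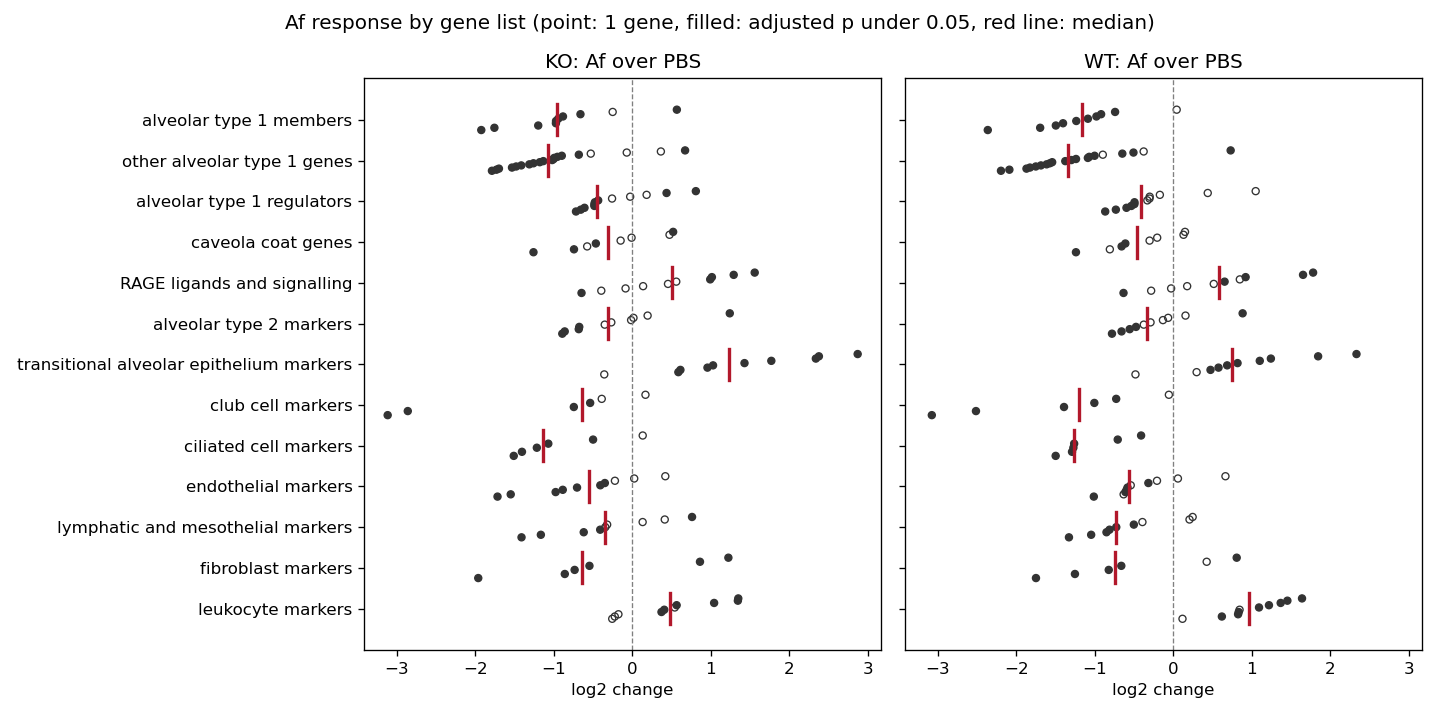
Log2 change under Af relative to PBS in KO lungs (left) and WT lungs (right), with 1 point a gene, filled where the limma adjusted p was under 0.05, the gene lists in rows and the list median as a red line. The medians of the 10 type 1 genes are -0.96 in KO and -1.16 in WT and those of the transitional markers 1.23 in KO and 0.75 in WT.

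Markers of further cell types moved in the same comparisons, and their part in the type 1 results was not tested. The counts stand beside 29.2% of all tested genes called lower and 28.7% higher in KO, and 25.6% and 26.2% in WT. Club cell markers fell for 4 of 6 in KO and 5 of 6 in WT, Cyp2f2 by 2.86 in KO and 2.51 in WT and Scgb1a1, the most abundant, by 0.75 and 0.73. Ciliated cell markers fell for 5 of 6 in KO and 6 of 6 in WT. Of 9 lymphatic and mesothelial markers 4 fell and 1 rose in KO and 6 fell in WT, with Upk3b, a mesothelial gene, at -1.41 in KO and -1.33 in WT. Fibroblast markers were mixed: Npnt, which alveolar epithelium makes too, changed by -1.96 in KO and -1.75 in WT, and Col1a1 by 1.22 in KO and 0.81 in WT, with 4 of 6 lower in each genotype. Of 4 tested squamous and basal markers 2 rose in KO and 1 in WT, Trp63 by 1.63 in KO and 1.13 in WT, and of 5 cardiac muscle markers 2 fell in each genotype, Myh6 by 2.98 in KO and 2.47 in WT.

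Between genotypes none of these lists had a called gene under Af, where 0.0868% of all tested genes were called. The share of all tested genes called under PBS was 3.55%, and the list genes called there are named beside that share. Under PBS 6 genes were called: Tead4 (-0.59, limma adjusted p = 0.0381) among the regulators, Sfn (-1.54, 0.00686) among the transitional markers, Tek (0.49, 0.0354) among the endothelial markers, Foxj1 (-0.62, 0.00182) among the ciliated markers, and the leukocyte genes Ptprc (0.82, 0.0201) and Coro1a (0.94, 0.0112). None of the 20 other type 1 genes was called under PBS, with a median of -0.26, and KO_PBS 11 was below the other KO_PBS libraries for all 20. No gene of any list was called in the interaction, where 0.0062% of all tested genes were called.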

How the data were processed

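The 12 mouse lung libraries were put into 4 groups of 3 from the labels. Per the submitters' processing notes the authors used RSEM 1.3.0, STAR 2.7.6a and cutadapt 1.18, and the notes list 2 builds, GRCm38 and GRCh38, without a role. The signal in the deposited table is CPM, adjusted by the authors with the trimmed mean of M-values. The use of strand in counting is not given here, so values of overlapping and antisense genes (Hopxos with Hopx, for example) are uncertain. Dividing by what 1 read is worth gave whole numbers for 100% of values in every library (tolerance 0.01), which recovered 20708884 to 30229446 reads per library. These totals limit precision, and counting error is small beside the spread between libraries.

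The 16126 genes that reached 1 CPM in 3 or more libraries were tested on log2(CPM + 0.5) with limma 3.58.1 in R 4.3.3 (trend, 1 fit over 4 groups, 8 residual degrees of freedom, Benjamini-Hochberg threshold 0.05), which was checked on simulated data. The log2(CPM + 0.5) scale understates changes of low genes. The type 1 genes and all lists were chosen with earlier results of these data known. The rule for naming took the 10 type 1 genes, Rgs4, up to 3 genes per list with the smallest p for Af against PBS in WT, the 3 most abundant of marker lists, called list genes in the interaction, and the 5 genes nearest to the common profile. Not all list genes that the rule took are named above. Other named genes, among them Icam1, Vegfa, Col4a3, Nkx2-1, Ctgf, Ankrd1, Cyr61, Amotl2, Lats2, Prkcdbp, Aqp3, Clic3, Rtkn, Hmgb1 and Sfn, were chosen after their values were seen. Alternatives were other pseudocounts, filters, scalings and variance models, array weights, the compared groups alone, edgeR 4.0.16 and DESeq2 1.42.0 on recovered reads, and leaving out libraries. Coordinates are from GENCODE M21 (GRCm38), and promoters from RefSeq (GRCm38.p6), searched on both strands. The library numbers run with genotype and exposure, so any effect of processing order and the groups cannot be told apart. Figures were drawn with matplotlib 3.10.9.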

Additional observations from a re-analysis of the deposited data

How the results depend on the processing

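For Af against PBS in WT the 9 decreases were called in all 28 alternatives, and Pdpn in none. For Af against PBS in KO 8 genes were called lower, 7 to 9 on leaving out 1 pair of libraries or changing another setting (16 alternatives) and 6 to 9 on leaving out 1 library. The single rise there, Pdpn, ended (0 genes higher) without a filter on low values, with array weights, with the compared groups alone, without WT_PBS 17 and KO_Af 12, and without KO_PBS 11 and KO_Af 12, and leaving out 1 library gave 0 to 1. Pdpn was then at a limma adjusted p of 0.0643 with no filter, 0.290 with array weights (log2 0.19), 0.103 with the compared groups alone and 0.148 without WT_PBS 17 and KO_Af 12. Aqp5 was lost with the compared groups alone (0.0582), and Gprc5a was called with array weights (0.0108). With array weights the Aqp5 change in KO was -1.09.

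Counts of type 1 genes called between genotypes and in the interaction were 0 in every alternative run. Those over all genes moved: KO against WT under Af gave 2 to 1188 higher and 1 to 1016 lower (main 6 and 8), under PBS 187 to 1392 higher and 186 to 1254 lower (main 306 and 267), and the interaction 0 to 850 higher and 0 to 752 lower (main 1 and 0), each highest with array weights. Leaving out 1 library gave 1 to 43 and 2 to 67 under Af, 53 to 633 and 78 to 597 under PBS, and 0 to 82 and 0 to 105 for the interaction. The cause was not tested. No paired analysis was possible because each library number occurs once, so the groups share no replicate number. Depth did not limit the type 1 genes, with at least 611 reads each per library, and 3 libraries a group leave 95% intervals for the type 1 genes that are widest for Rtkn2, at -0.92 to 1.80 on the log2 scale in the interaction.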
